A study of Homo sapiens with 15 samples.

Results

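The UGT1A locus of KPL4 cells, a human breast adenocarcinoma line with high ERBB2 mRNA, was followed across 5 groups that differ in estrogen receptor β (ERβ, encoded by ESR2). Its members were the 8 gene records of the count table that map to the symbols UGT1A1, UGT1A3, UGT1A4, UGT1A6, UGT1A7, UGT1A8, UGT1A9 and UGT1A10, of 60664 records in all, and their 19 transcripts of 236920. UDP-glucuronosyltransferases attach glucuronic acid to small lipophilic molecules such as bilirubin, estrogens, bile acids, dietary phenols and drugs, which makes them water-soluble and lets them be exported. The UGT1A enzymes come from a single locus: each has a first exon and promoter of its own, which sets the substrate-binding part of the protein, spliced to one common set of 4 downstream exons that encode the part binding UDP-glucuronic acid. In breast tissue this reaction is known as a route of local estrogen removal, and several first-exon promoters are known targets of the aryl hydrocarbon receptor (AHR) and of NRF2, the regulator of oxidative-stress genes.

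The 15 libraries, 3 per group, were made from total RNA after removal of ribosomal RNA. LY500307 cells were knockout cells carrying transfected ERβ that were held for 72 h without phenol red, in 1% charcoal-stripped serum, and then received 200 nM of the ERβ agonist LY500307 for 24 h. Vehicle cells had the same genotype and medium and received DMSO for 24 h. Add-back cells were knockout cells with transfected ERβ, knockout cells were labelled as lacking ERβ, and control cells as keeping their endogenous ERβ; these 3 groups grew in medium with 7% serum, insulin and hydrocortisone. The sources used here do not say whether the knockout line was a single clone, how the transgene was driven or whether replicates were separate cultures, so p-values measure the spread between these libraries, which may be technical. Vehicle and add-back cells differ in phenol red, serum and DMSO together, and the sources do not say whether the stripped medium held insulin and hydrocortisone, so their contrast cannot be assigned to any one of these. LY500307 and vehicle cells all carried the transgene, so the agonist was not tested here on endogenous ERβ.

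Libraries held 12614074 to 19390378 expected counts, and 3 counts corresponded to 0.16 to 0.228 CPM, where CPM is the expected count scaled to TMM-adjusted library size. ESR2 mRNA lay between 42.4 and 45.1 CPM with LY500307, 41.7 and 48.0 CPM with vehicle, 30.6 and 34.1 CPM in add-back, 3.07 and 5.79 CPM in knockout and 4.79 and 6.43 CPM in control libraries. The knockout and control ranges overlapped (log2 fold change -0.38 ± 0.17 SE, adjusted p = 0.0796), so the mRNA level by itself does not check the knockout label; ESR2 was higher in all libraries of the 3 groups labelled as carrying the transgene. The epithelial markers were present in all 15 libraries (EPCAM 335 to 401 CPM, KRT8 961 to 1725 CPM and ERBB2 3411 to 6328 CPM). Of 6 hepatocyte markers, APOA1 was at 0 in 13 libraries and TTR in 14, while FGB lay between 27.5 and 359 CPM; the summed level was 359 to 386 CPM with LY500307, 349 to 379 CPM with vehicle, 83.4 to 109 CPM in add-back, 35.0 to 41.4 CPM in knockout and 52.9 to 67.4 CPM in control cells. The enterocyte marker ALPI was at 0 in all 15 libraries, and the 5 enterocyte markers summed to at most 2.26 CPM in any library. The immune, endothelial and fibroblast markers summed to at most 7.47, 10.7 and 4.42 CPM. Their part in the results was not tested.

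The 8 members read the same 4 downstream exons, so a read that falls there cannot be given to one of them by sequence. The junctions of each first exon with the common second exon show how far the members can be told apart. They are printed from GRCh38 on the plus strand of chromosome 2, with 15 bases of the first exon in lower case and the first 15 bases of exon 2, which starts at 233767034, in capitals.
UGT1A8: aagccattgcctatgGAATTTGAAGCCTAC
UGT1A10: aagccattgcctatgGAATTTGAAGCCTAC
UGT1A9: aagccgttgcctatgGAATTTGAAGCCTAC
UGT1A7: aagccagtgcctatgGAATTTGAAGCCTAC
UGT1A6: aaagacttgtctcagGAATTTGAAGCCTAC
UGT1A4: aagccactatctcagGAATTTGAAGCCTAC
UGT1A3: aagccactatctcagGAATTTGAAGCCTAC
UGT1A1: aatccactatcccagGAATTTGAAGCCTAC
The 15 first-exon bases at the junction were identical in UGT1A8 and UGT1A10, and again in UGT1A4 and UGT1A3. Over whole first exons, UGT1A3 and UGT1A4 were 93.12% identical, and UGT1A7, UGT1A8, UGT1A9 and UGT1A10 were 91.67% to 94.44% identical to one another. UGT1A6 shared 59.29% to 62.67% of aligned bases with the other 7 members, and UGT1A1 57.42% to 64.06%. First-exon reads of UGT1A6 and UGT1A1 thus fall on sequence unlike that of the other members, while the split between UGT1A3 and UGT1A4, and among UGT1A7 to UGT1A10, rests on fewer distinguishing bases. UGT1A5, which is no member, was 94.12% identical to UGT1A3 and 93.19% to UGT1A4 over its first exon. The summed count of the 8 members does not depend on the split among them, though it does on the split from UGT1A5, and was tested as a single feature beside the members. With UGT1A5 and the UGT1A pseudogenes added to the sum, the log2 fold changes were -0.69 in knockout against control, 0.11 in add-back against knockout, -0.58 in add-back against control, -0.03 in LY500307 against vehicle and 0.12 in vehicle against add-back cells, with the same calls.

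In the GENCODE 29 annotation of GRCh38 the first exons run along chromosome 2 in the order UGT1A8 (233617645 to 233618562), UGT1A10 (233636454 to 233637377), UGT1A9 (233671853 to 233672789), UGT1A7 (233681938 to 233682792), UGT1A6, UGT1A4 (233718778 to 233719687), UGT1A3 (233729108 to 233729993) and UGT1A1 (233760248 to 233761151), and all transcripts end by 233773310. UGT1A6 has 2 starts. An upstream exon at 233691607 to 233691820 opens transcripts UGT1A6-202, UGT1A6-204, UGT1A6-205 and UGT1A6-207, and a downstream exon at 233692866 to 233693865 opens UGT1A6-201, which encodes the full-length enzyme. The first exons of UGT1A4, UGT1A3 and UGT1A1 lie between exons of UGT1A6-201. The first exon of UGT1A3-201 has 886 bases, of which 472 are in no other gene of the locus. UGT1A6-206 ends within that exon, at 233729917. The RNA was not selected for poly(A), so reads from unspliced UGT1A6 RNA can fall in these exons; their share of the counts was not tested.

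The stretches just upstream of both UGT1A6 starts are shown because UGT1A6 carried most of the locus. They were taken from RefSeq promoter windows of GRCh38.p14, which were found for 7 of the 8 members (UGT1A10 had none), and end where the first GENCODE exon begins. Capitals mark the core of the xenobiotic response element, GCGTG on either strand, to which AHR is known to bind.
UGT1A6 upstream start, plus strand, chr2:233691452-233691606: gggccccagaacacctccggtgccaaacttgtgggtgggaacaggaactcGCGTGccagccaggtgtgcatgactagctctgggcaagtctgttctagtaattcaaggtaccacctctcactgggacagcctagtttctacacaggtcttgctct
UGT1A6 downstream start, plus strand, chr2:233692640-233692865: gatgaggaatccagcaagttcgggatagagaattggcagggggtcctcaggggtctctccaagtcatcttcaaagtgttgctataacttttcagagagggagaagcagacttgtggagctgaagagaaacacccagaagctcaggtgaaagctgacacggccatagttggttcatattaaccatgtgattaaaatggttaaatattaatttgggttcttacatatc
In the 250 bases before the RefSeq start, GCGTG occurred once each at the upstream UGT1A6 start, UGT1A4, UGT1A7, UGT1A8 and UGT1A9. It did not occur at the downstream UGT1A6 start, UGT1A3 or UGT1A1. Of all 35116 human promoter windows 32.2% held it. TGACNNNGC, the core of the antioxidant response element bound by NRF2, occurred at the downstream UGT1A6 start alone among the member windows and in 10.9% of all windows. GGTCA, the half-site of the estrogen response element, occurred once each before the upstream UGT1A6 start, UGT1A3, UGT1A4, UGT1A8 and UGT1A9, and in 32.6% of all windows. TGANTCA, the AP-1 motif, occurred in 0 member windows and in 6.57% of all windows. The windows of UGT1A7, UGT1A8 and UGT1A9 resemble one another, as do those of UGT1A3 and UGT1A4. Member windows are thus not independent, and their matches cannot be weighed against the shares over all windows. Both strands were read; these matches describe the letters of the windows and no binding was measured.

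UGT1A6, which conjugates small planar phenols, was the main transcript of the locus in every library. It averaged 259 ± 10.7 CPM with LY500307, 279 ± 9.43 CPM with vehicle, 219 ± 6.49 CPM in add-back, 186 ± 3.32 CPM in knockout and 305 ± 5.90 CPM in control cells (SD, n = 3 each). UGT1A1, the bilirubin-conjugating enzyme, came next in knockout cells at 34.7 ± 0.830 CPM and in control cells at 56.1 ± 1.21 CPM. UGT1A3, which acts on estrogens and bile acids, and UGT1A4, which acts on amines, had group means of 14.9 to 39.2 CPM and 13.5 to 35.2 CPM. UGT1A7 averaged 8.12 to 19.1 CPM and UGT1A10, both known from the digestive tract, 0.989 to 3.56 CPM. UGT1A8, known from the intestine, had 5.94 expected counts in 1 control library and 0 in the other 14 libraries, and UGT1A9, known from liver and kidney, was at 0 in all 15, where 3 counts would have been at most 0.228 CPM. These 2 members were not tested; the other 6 passed the filter on low counts.

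First-exon shares were counted over member transcripts without an incomplete annotated start. This left out UGT1A6-208 and UGT1A7-202, so UGT1A7 was set to 0 in every library. Over all member transcripts, UGT1A7 averaged 2.33% with vehicle to 4.19% in control cells, and UGT1A6 66.5% in knockout to 79.3% with vehicle. By the first count, UGT1A6 made up 78.9% of the locus with LY500307, 81.2% with vehicle, 74.9% in add-back, 69.0% in knockout and 69.8% in control cells. Its share was 5.91 percentage points higher in add-back than in knockout cells and 6.28 points higher in vehicle than in add-back cells, and in both contrasts the 3 libraries of each group did not overlap. The exact two-sided permutation test of 3 against 3 libraries gave p = 0.1 for each, which is the smallest it can give (0.167 and 0.1 after Benjamini-Hochberg adjustment over the members). The share also differed by 5.075 points between add-back and control cells and by -2.31 points between LY500307 and vehicle cells, again without overlap. The same exact test gave p = 0.1 for both of these (0.3 and 0.25 after adjustment). Between knockout and control cells the share differed by -0.84 points (p = 0.7 by the same exact test).

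**Figure D1:**
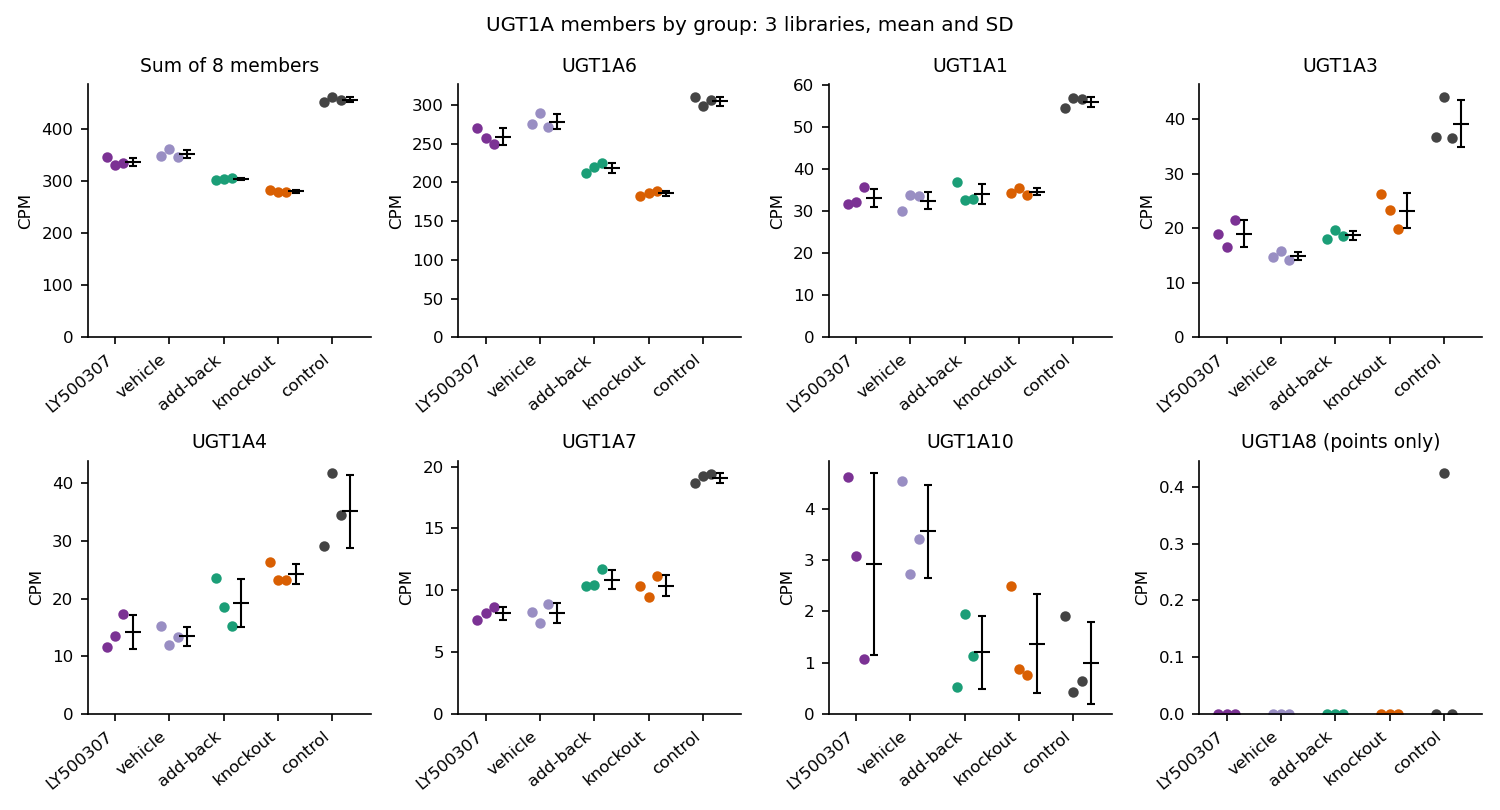
CPM of the summed locus and of 7 members in each library (points) by group, with the mean and SD of 3 libraries beside them; UGT1A8 has points only, and UGT1A9 was at 0 in all 15 libraries. Control cells stand above the other 4 groups for the sum, UGT1A6, UGT1A1, UGT1A3, UGT1A4 and UGT1A7, while UGT1A10 is highest on average with vehicle.

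Per kilobase of transcript, levels differed along the locus. Before UGT1A6, the highest group mean among UGT1A8-201, UGT1A10-201, UGT1A9-201 and UGT1A7-201, the transcripts that run to the common last exon, was 0.111 CPM per kb, for UGT1A10-201 in control cells. UGT1A10-202, which has the UGT1A10 first exon but ends at 233770279, stood at 1.43 CPM per kb with LY500307, 1.74 with vehicle, 0.592 in add-back, 0.584 in knockout and 0.333 in control cells. UGT1A7-202, which ends short of the common exons, lay between 3.72 and 8.14 CPM per kb. UGT1A6-201 stood at 77.9 CPM per kb with LY500307, 83.9 with vehicle, 64.2 in add-back, 50.1 in knockout and 79.2 in control cells. Downstream of it, UGT1A4-201, UGT1A3-201 and UGT1A1-202 lay between 5.65 and 16.0 CPM per kb in all groups. Records between them that are not members were also above 0, among them UGT1A5-201 at 10.9 CPM per kb in knockout and 15.2 in control cells and the pseudogene UGT1A2P at 6.34 in knockout and 10.5 in control cells.

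**Figure D2:**
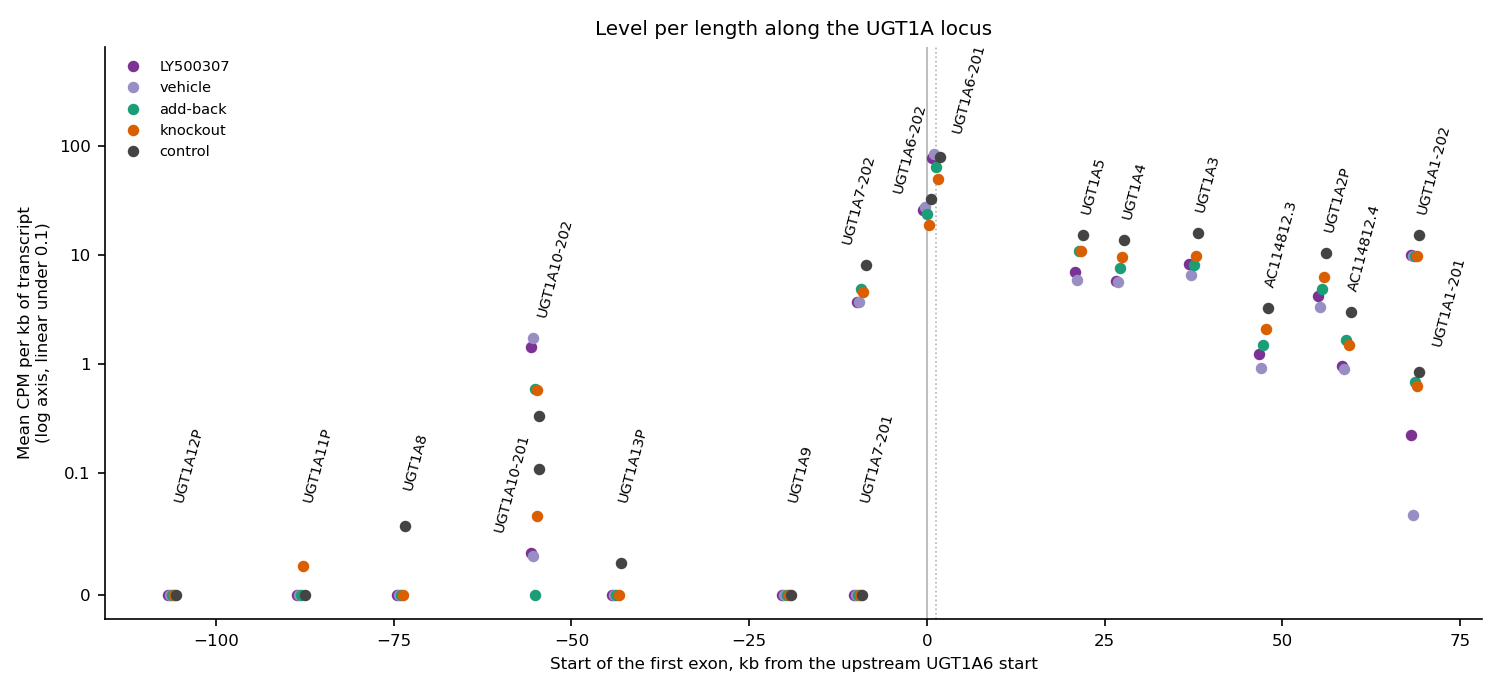
Mean CPM per kb of transcript (log axis, linear under 0.1) against the start of the first exon in kb from the upstream UGT1A6 start; colours are the 5 groups, and a name without a suffix stands for the first transcript of that gene, and the other transcripts of the locus are not drawn. Of the transcripts drawn before UGT1A6, UGT1A10-202 and UGT1A7-202 stand above the rest, and UGT1A6-201 is highest of all.

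The first contrast asks what differed in the cells labelled as ERβ knockout. Knockout cells had less UGT1A mRNA than control cells: the summed locus stood at 283, 279 and 278 CPM in the knockout libraries, against 451, 461 and 454 CPM in the control libraries. The groups did not overlap, and the sum was 1.63-fold lower (log2 fold change -0.70 ± 0.03 SE, adjusted p = 2.462e-13). Of the 6 tested members, 5 fell and 0 rose; over all 19516 genes tested, 46.0% were called in this contrast and 22.6% were called lower.

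UGT1A6 had 183, 186 and 189 CPM in knockout libraries, against 310.0, 299 and 307 CPM in control libraries, a log2 fold change of -0.71 ± 0.04. UGT1A1 had 34.4, 35.6 and 34.0 CPM in knockout libraries, against 54.7, 56.8 and 56.7 CPM in control libraries (-0.70 ± 0.06). UGT1A7 was lower by the most, at 10.4, 9.47 and 11.2 CPM in knockout libraries, against 18.6, 19.2 and 19.4 CPM in control libraries (-0.88 ± 0.09). None of these 3 members had overlapping groups.
UGT1A3 had 26.3, 23.4 and 19.9 CPM in knockout libraries, against 36.8, 44.2 and 36.6 CPM in control libraries (-0.76 ± 0.10). UGT1A4 had 26.3, 23.2 and 23.2 CPM in knockout libraries, against 29.2, 41.8 and 34.6 CPM in control libraries (-0.54 ± 0.14). The control libraries of UGT1A4 spread more than those of the other called members, and the groups still did not overlap. Adjusted p-values of these 5 members lay between 1.172e-11 for UGT1A6 and 0.004118 for UGT1A4. UGT1A10 had 2.49, 0.865 and 0.752 CPM in knockout libraries, against 1.90, 0.433 and 0.633 CPM in control libraries, with overlapping groups and a log2 fold change of 0.48 ± 0.65 (adjusted p = 0.587); it turned to -0.29 without knockout replicate 1.

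At the transcript level, 7.99% of 73285 transcripts tested were called in knockout against control cells. Of the 15 member transcripts with a mean of at least 10 expected counts in 1 group or more, 7 were called and all 7 were lower. UGT1A6-201, which encodes the full-length enzyme, had 120.0, 128 and 125 CPM in knockout libraries, against 200.1, 188 and 201 CPM in control libraries (-0.66 ± 0.05, adjusted p = 1.148e-05). From the upstream start, UGT1A6-202 (-0.79 ± 0.12), UGT1A6-204 (-0.69 ± 0.17) and UGT1A6-205 (-0.96 ± 0.22) fell too. None of them holds a base that no other transcript has, and their upstream exon lies within the last exon of UGT1A7-202. Their counts and the share from the upstream start thus rest in part on the estimated split of shared reads. The upstream transcripts together held 25.7% of UGT1A6 expected counts in knockout cells and 27.7% in control cells, and the ranges of the groups overlapped (25.1% to 26.3% in knockout and 25.8% to 29.4% in control libraries). UGT1A3-201 changed by -0.71 ± 0.12. UGT1A4-201, which held nearly all UGT1A4 counts, was not called (-0.52 ± 0.22, adjusted p = 0.225). UGT1A6-204 lost its call when no low-count filter was used (adjusted p = 0.0795), and UGT1A6-204 and UGT1A6-205 each lost it when any of 4 of the 6 libraries was left out, with adjusted p up to 0.0968 and 0.0859.

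Nearly all UGT1A1 and all UGT1A7 counts sat on UGT1A1-202 and UGT1A7-202. These hold 864 and 425 first-exon bases that are in no other gene of the locus. The bases that no other transcript shares, however, lie wholly or nearly all in their last exons. UGT1A1-202 had 32.9, 33.7 and 32.3 CPM in knockout libraries, against 51.5, 52.3 and 52.3 CPM in control libraries (-0.66 ± 0.06, adjusted p = 3.965e-05), while UGT1A1-201, which ends in the common last exon, averaged 1.505 CPM in knockout and 2.00 CPM in control cells. UGT1A1-202 ends in an exon of 2085 bases, of which 1336 belong to no other transcript of the locus, and the introns of UGT1A6-201 cover these bases. UGT1A7-202 fell as well (-0.84 ± 0.10, adjusted p = 0.000293). Of its 1620 own bases, 1614 lie in a last exon that ends at 233692347, beyond the upstream UGT1A6 exon, and UGT1A7-201, with the usual first exon, was at 0 in all 15 libraries. The counts of these members are thus no reading of their first exons alone.

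The next contrast sets knockout cells with transfected ERβ against knockout cells. No group was labelled as carrying an empty vector, so ERβ and transfection itself cannot be told apart here. The sum was slightly higher in add-back cells: 302, 303 and 305 CPM in add-back libraries, against 283, 279 and 278 CPM in knockout libraries, without overlap and 1.09-fold (log2 fold change 0.13 ± 0.03, adjusted p = 0.00219). Add-back libraries all remained below the control libraries, and the sum was 1.49-fold lower in add-back than in control cells (-0.58 ± 0.03, adjusted p = 7.266e-12). Of the 6 tested members, 1 rose and 1 fell in add-back against knockout cells, where 19.6% of all genes tested were called, 10.4% higher and 9.19% lower.

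UGT1A6 rose to 212, 219 and 225 CPM in add-back libraries, against 183, 186 and 189 CPM in knockout libraries, with no overlap (0.24 ± 0.04, adjusted p = 0.000133). UGT1A3 fell to 18.0, 19.6 and 18.5 CPM in add-back libraries, against 26.3, 23.4 and 19.9 CPM in knockout libraries (-0.30 ± 0.10, adjusted p = 0.0490). That call lay at the threshold and was lost with RLE factors (adjusted p = 0.0602), with DESeq2 (0.0990), with the replicate block (0.0597) and when any of the 6 libraries other than knockout replicate 3 was left out (adjusted p up to 0.277). UGT1A4 had 23.6, 18.6 and 15.3 CPM in add-back libraries, against 26.3, 23.2 and 23.2 CPM in knockout libraries, and did not pass the test (-0.34 ± 0.15, adjusted p = 0.130); it passed without the low-count filter (0.00132) and without add-back replicate 1 (0.0356). UGT1A1 had 36.9, 32.6 and 33.0 CPM in add-back libraries, against 34.4, 35.6 and 34.0 CPM in knockout libraries; its groups overlapped, and its log2 fold change had a 95% interval of -0.14 to 0.10. UGT1A7 overlapped too, at 10.4, 10.4 and 11.7 CPM in add-back libraries, against 10.4, 9.47 and 11.2 CPM in knockout libraries (-0.12 to 0.24). Among transcripts, UGT1A6-201 alone of the 15 was called, with 149, 161 and 167 CPM in add-back libraries, against 120.0, 128 and 125 CPM in knockout libraries (0.36 ± 0.05, adjusted p = 0.00561; 1.45% of all transcripts tested were called).

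Set against control cells directly, add-back cells had 5 of 6 tested members lower and 0 higher, where 45.8% of all genes were called and 22.7% were called lower. These were UGT1A3 (-1.06 ± 0.10), UGT1A4 (-0.88 ± 0.14), UGT1A7 (-0.82 ± 0.09), UGT1A1 (-0.72 ± 0.06) and UGT1A6 (-0.48 ± 0.04), with adjusted p-values of at most 5.537e-05. At the transcript level 8 of 15 were called and all 8 were lower, where 8.29% of all transcripts were called: UGT1A6-201 (-0.30 ± 0.05), UGT1A1-202, UGT1A3-201 and UGT1A7-202 kept the call in every alternative run, while UGT1A6-202, UGT1A6-203, UGT1A6-207 and UGT1A4-201 each lost it when any of 4 or 5 of the 6 libraries was left out. This contrast shares its control libraries with the knockout contrast and its add-back libraries with the previous one.

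The agonist contrast asks what LY500307 did in add-back cells in stripped serum. The sum had 345, 331 and 334 CPM in LY500307 libraries, against 348, 361 and 345 CPM in vehicle libraries; the ranges overlapped by a small margin and the difference did not pass the test (-0.05 ± 0.03, 95% interval -0.10 to 0.0041, adjusted p = 0.329). None of the 6 tested members was called by edgeR's quasi-likelihood test, against 7.12% of all genes, 4.77% higher and 2.35% lower; 2 members, UGT1A3 and UGT1A6, had an unadjusted p under 0.05, and DESeq2 called 1, UGT1A3. UGT1A6 had 271, 257 and 250 CPM in LY500307 libraries, against 275, 289 and 271 CPM in vehicle libraries (-0.10 ± 0.04, adjusted p = 0.0944). UGT1A3 went the other way, with 19.0, 16.6 and 21.4 CPM in LY500307 libraries, against 14.8, 15.8 and 14.2 CPM in vehicle libraries, and no overlap (0.35 ± 0.11, adjusted p = 0.0618). UGT1A3 passed the threshold without the low-count filter (adjusted p = 0.00021), with a filter of 1 CPM (0.0451), with DESeq2 (0.0457), with the 6 libraries fitted alone (0.0274) and without LY500307 replicate 2 (0.0444). The intervals of the others were -0.09 to 0.15 for UGT1A1, -0.26 to 0.41 for UGT1A4, -0.19 to 0.19 for UGT1A7 and -1.14 to 0.62 for UGT1A10. None of the 15 member transcripts was called, against 0.0532% of all transcripts.

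**Figure D3:**
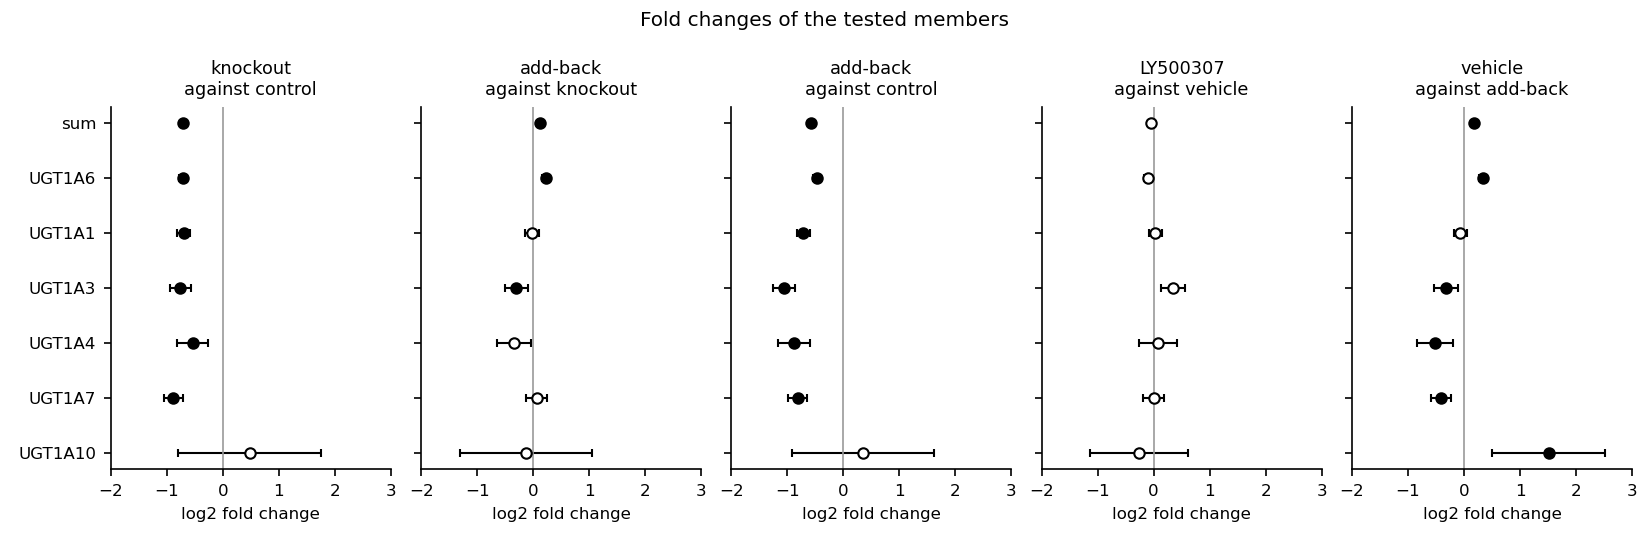
Log2 fold changes (points) of the summed locus and the 6 tested members in the 5 contrasts, with bars for 95% intervals; filled points passed an adjusted p of 0.05. Knockout against control shows 5 members of similar negative size, and vehicle against add-back shows UGT1A6 and UGT1A10 above 0 with UGT1A3, UGT1A4 and UGT1A7 below 0.

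Vehicle cells in stripped serum differed from add-back cells in full medium in both directions. UGT1A6 rose to 275, 289 and 271 CPM in vehicle libraries, against 212, 219 and 225 CPM in add-back libraries (0.35 ± 0.04, adjusted p = 2.315e-07). UGT1A10 rose to 4.54, 2.73 and 3.42 CPM in vehicle libraries, against 0.525, 1.95 and 1.14 CPM in add-back libraries (1.51 ± 0.51, adjusted p = 0.0203), and this call was lost without add-back replicate 1 (adjusted p = 0.103), add-back replicate 3 (0.0589) or vehicle replicate 1 (0.0894). Nearly all UGT1A10 counts sat on UGT1A10-202, which was not called as a transcript (1.54 ± 0.73, adjusted p = 0.261). Of its 2065 bases, 1189 lie in exons of other genes. UGT1A4, at 15.2, 11.9 and 13.3 CPM in vehicle libraries, against 23.6, 18.6 and 15.3 CPM in add-back libraries, fell (-0.51 ± 0.16, adjusted p = 0.0140), with groups that met at 15.2 and 15.3 CPM.
UGT1A7 fell by 0.41 ± 0.09 on the log2 scale (adjusted p = 0.0013) and UGT1A3 by 0.33 ± 0.11 (adjusted p = 0.0194). The calls of UGT1A4 and UGT1A3 were lost when 1 library was left out: add-back replicate 1 (adjusted p = 0.0837) or vehicle replicate 2 (0.0622) for UGT1A4, and add-back replicate 2 (0.0515) for UGT1A3. UGT1A1 had 30.2, 33.8 and 33.7 CPM in vehicle libraries, against 36.9, 32.6 and 33.0 CPM in add-back libraries (-0.07 ± 0.06, adjusted p = 0.378). In all, 2 members rose and 3 fell, where 48.1% of all genes were called, 26.4% higher and 21.6% lower. The sum rose 1.14-fold (0.18 ± 0.03, adjusted p = 1.436e-05), but with offsets for GC content and length it changed by 0.06 and missed the threshold (adjusted p = 0.0551). Of 15 member transcripts 3 were called, where 8.93% of all transcripts were: UGT1A6-201 (0.39 ± 0.05) and UGT1A6-204 (0.61 ± 0.17) rose and UGT1A7-202 fell (-0.39 ± 0.10). The calls of UGT1A6-204 and UGT1A7-202 were each lost without the low-count filter (adjusted p = 0.119 and 0.181) and when any of 5 of the 6 libraries was left out.

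In vehicle libraries UGT1A6 was higher while UGT1A3 and UGT1A4, whose first exons lie between its exons, were lower. The expected counts of UGT1A3, UGT1A4, UGT1A5 and UGT1A2P together stood at 16.9, 14.9 and 16.4 per 100 UGT1A6 counts in vehicle libraries, against 37.0, 30.4 and 24.9 in add-back libraries. They did not overlap; the ratio restates the values above on 1 scale, and no test of it is given. In add-back libraries the same 3 values also lay below those of knockout libraries, 49.0, 39.0 and 38.9, whereas knockout and control libraries overlapped, at 49.0, 39.0 and 38.9 in knockout and 35.6, 44.7 and 38.5 in control libraries. With LY500307 the ratio was 16.7, 19.9 and 24.6, overlapping the vehicle libraries at 16.9, 14.9 and 16.4. Which part of these counts came from spliced RNA of each member and which from unspliced UGT1A6 RNA was not tested.

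**Figure D4:**
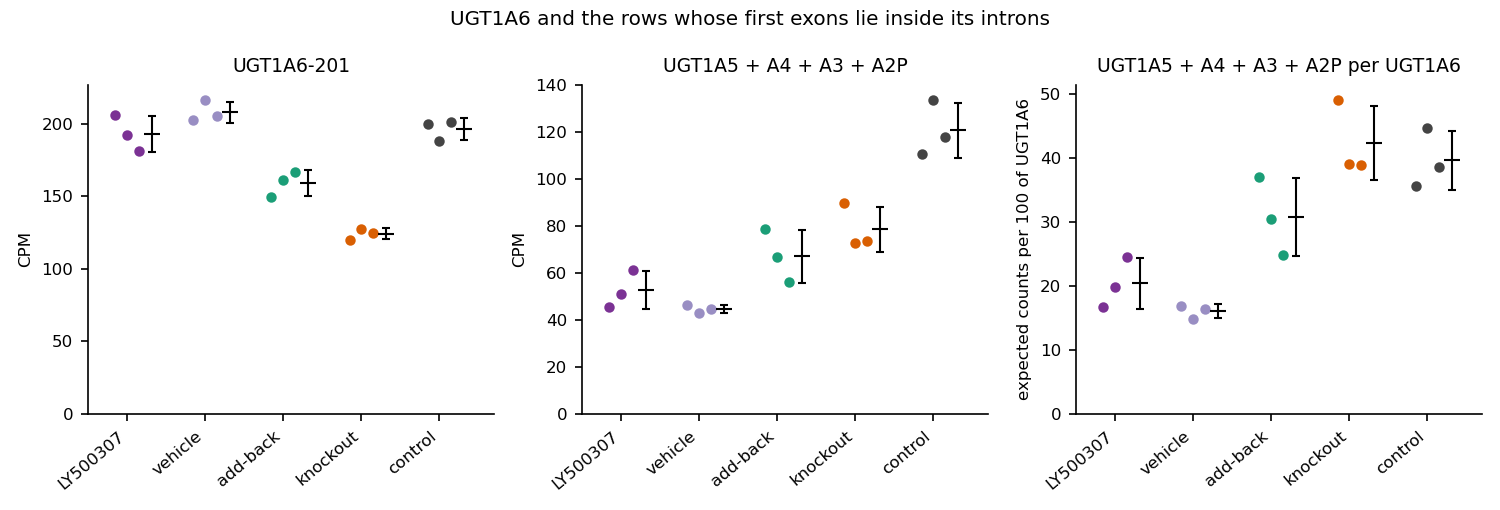
UGT1A6-201 in CPM (left), the summed CPM of UGT1A5, UGT1A4, UGT1A3 and UGT1A2P, whose first exons lie between the exons of UGT1A6-201 (middle), and their expected counts per 100 of UGT1A6 (right); points are libraries, bars the mean and SD of 3. UGT1A6-201 is lowest in knockout cells, at 120.0 to 128 CPM, and the ratio is lowest with vehicle, at 14.9 to 16.9.

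The enzymes, carriers and regulators around glucuronidation were read from lists. Of 13 other UGT enzymes 4 were tested; in knockout against control cells 3 fell and 0 rose, among them the androgen-conjugating UGT2B15 (0.733 ± 0.0812 CPM in knockout and 1.88 ± 0.0873 CPM in control cells, -1.35 ± 0.23), and UGT2B10, at 0.236 ± 0.117 CPM in knockout cells, near the floor of 3 counts, and 1.01 ± 0.166 CPM in control cells, where 22.6% of all genes fell. In add-back against knockout cells UGT2B10, UGT2B11 and UGT2B15 rose, where 10.4% of all genes did. UGT2B15 averaged 2.76 ± 0.358 CPM in add-back cells, against 0.733 ± 0.0812 CPM in knockout cells (1.91 ± 0.22, adjusted p = 3.299e-06). UGT2B11 averaged 0.215 CPM in knockout cells, near the floor of 3 counts. UGT2B28 was called higher too, from 0.0475 CPM in knockout cells, under that floor. It lay between 0.703 and 1.29 CPM in add-back libraries and at 0.747 CPM or less in all others. The low-count filter thus kept UGT2B28 by its add-back level, and its call is no separate result. In vehicle against add-back cells 1 of the 4 fell, and none was called with LY500307.

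Genes for the sugar donor moved in both directions. Of 7 genes for making, moving or removing glucuronic acid, 2 rose and 1 fell in knockout against control cells, where 23.4% of all genes rose: UGDH, which makes UDP-glucuronic acid, fell to 946 ± 3.19 CPM in knockout cells, against 1347 ± 69.5 CPM in control cells (-0.51 ± 0.03), and SLC35D1, which carries it into the endoplasmic reticulum, rose (0.52 ± 0.06). Of 6 tested conjugate exporters 5 fell, where 22.6% of all genes did, with ABCC2 at 138 ± 3.88 CPM in knockout and 351 ± 7.60 CPM in control cells (-1.35 ± 0.03), ABCC4 at -1.39 ± 0.05 and ABCG2 at -1.03 ± 0.06; their median log2 fold change was -0.94, against -0.0049 over all genes. In add-back against knockout cells 4 of the 6 rose and 2 fell, where 10.4% of all genes rose and 9.19% fell, with ABCG2 at 0.59 ± 0.06 and ABCC3 at -0.37 ± 0.04, and in vehicle against add-back cells 2 rose and 4 fell, where 26.4% of all genes rose and 21.6% fell, with ABCC2 at 0.52 ± 0.03 and ABCG2 at -0.64 ± 0.06.

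Of 16 tested enzymes known as AHR or NRF2 targets, 11 fell and 3 rose in knockout against control cells (median -0.39), where 22.6% of all genes fell and 23.4% rose: AKR1B10, an aldo-keto reductase, stood at 181 ± 2.39 CPM in knockout and 459 ± 13.6 CPM in control cells (-1.34 ± 0.04), while CYP1B1, which hydroxylates estradiol, was higher (0.85 ± 0.05). In vehicle against add-back cells 8 rose and 5 fell, where 26.4% of all genes rose and 21.6% fell. The AHR target CYP1A1 stood at 36.7 ± 3.74 CPM with vehicle and 0.927 ± 0.305 CPM in add-back cells (5.29 ± 0.18), and ALDH3A1 at 65.9 ± 3.92 CPM with vehicle and 12.8 ± 0.494 CPM in add-back cells (2.36 ± 0.06). With LY500307 6 of the 16 fell and 0 rose, where 2.35% of all genes fell, each by a small step, such as GCLM (-0.22 ± 0.05) and CYP1B1 (-0.17 ± 0.05). Among 13 tested regulators 3 rose and 3 fell in knockout against control cells, close to the shares over all genes (23.4% and 22.6%). AHR had 207 CPM in knockout and 199.8 CPM in control cells (0.05 ± 0.05). NFE2L2, which encodes NRF2 and lies on chromosome 2 like the locus, fell (-0.70 ± 0.03). Whether its level bore on the target enzymes or on UGT1A was not tested. AHR rose in vehicle against add-back cells (0.59 ± 0.05), and the liver factor HNF4A was at or near 0. The heme and bilirubin list had 6 tested genes, of which 1 rose and 2 fell in knockout against control cells, and the sulfotransferase list had 7, of which 1 rose and 3 fell, where over all genes 23.4% rose and 22.6% fell. In the last list STS, which frees estrogens from their sulfates, had a log2 fold change of -0.54 ± 0.04.

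The locus lies in a stretch of chromosome 2 in which most genes are already known to be lower in knockout than in control cells in these data, so its neighbours were read beside it. Among the nearest tested protein-coding genes, those before the locus were USP40, at 18.7 kb (-0.75 ± 0.05), DGKD, at 113 kb (-0.25 ± 0.05) and ATG16L1, at 290 kb (-0.35 ± 0.05). After it came MROH2A, at 2.37 kb (-0.38 ± 0.20, adjusted p = 0.125) and HJURP, at 60.1 kb (-0.64 ± 0.04). Within 5 Mb on either side, 51 of 74 other tested genes fell and 3 rose in knockout against control cells (68.9% lower, against 22.6% over all genes), with a median log2 fold change of -0.54. Of these, 6 are records inside the locus, 5 of them lower, whose reads may not be separable from UGT1A reads; of the 68 records outside it 46 fell and 3 rose, with a median of -0.52. In add-back against control cells 47 of the 68 fell, where 22.7% of all genes did, and in add-back against knockout cells 5 fell and 6 rose, near the shares of 9.19% lower and 10.4% higher over all genes. The sum changed by -0.70, beside the median of -0.52 for the 68 records outside the locus. A change of the whole stretch and one of the locus cannot be told apart here.

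**Figure D5:**
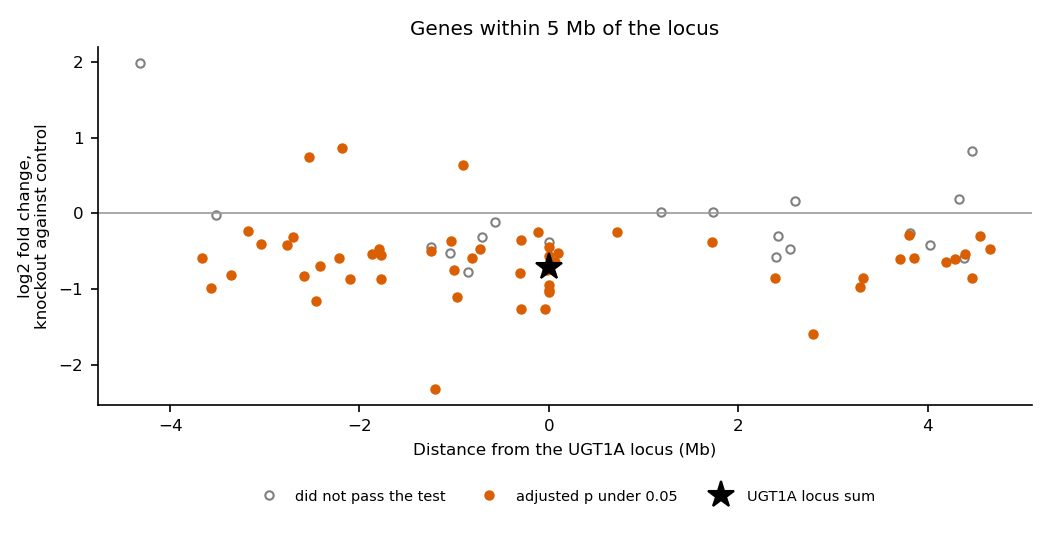
Log2 fold change in knockout against control cells of 74 tested genes within 5 Mb of the UGT1A locus, by distance in Mb; filled points passed an adjusted p of 0.05, and the star is the summed locus at -0.70. Of the 74 genes 51 lie below 0 as filled points and 3 above it.

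Across the 15 libraries and 12116 protein-coding genes outside the locus, the log2 CPM most like that of the sum belonged to BORA (Pearson r = 0.989), NFE2L2 (0.989), SF3B1 (0.987), HSPH1 (0.985) and ARPC2 (0.982). BORA and HSPH1 lie on chromosome 13 and the other 3 on chromosome 2. The 15 libraries fall into 5 groups, and control cells stand apart for all of these genes, so r describes mainly the order of the group means. NFE2L2 averaged 98.2 CPM with LY500307, 108 CPM with vehicle, 94.3 CPM in add-back, 85.9 CPM in knockout and 139 CPM in control cells, the same order of groups as the sum. BORA, SF3B1, HSPH1 and ARPC2 had that order too. All were picked for their likeness to the sum, so the order is no separate result about NFE2L2.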

How the data were processed

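Per the submitters' processing notes, reads were checked with FastQC, trimmed with Trim Galore, aligned with GSNAP to GRCh38 and quantified with RSEM, and the deposited values are expected counts per gene and per transcript. Tool versions, the annotation release and the strand setting are not given in the sources used here, so reads of antisense records such as AC114812.2 cannot be told apart from those of UGT1A6. Gene identifiers were matched to symbols and positions in GENCODE 29 (58409 of 60664); promoter windows came from RefSeq. The members and gene lists were chosen with earlier results of these data known.

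Expected counts were rounded, filtered with filterByExpr, scaled by TMM and tested with edgeR 4.0.16 in R 4.3.3 (quasi-likelihood test, all 15 libraries, no covariate, Benjamini-Hochberg adjusted p under 0.05 called a change over all features tested). The summed locus replaced its members in a separate fit. First-exon shares were compared by exact two-sided permutation tests. The fit was tested on simulated counts. No pair of replicates agreed within sampling noise, and replicate numbers did not pair the libraries. Alternatives were RLE and upper-quartile factors, no filter, a filter of 1 CPM, DESeq2 1.42.0, 6 libraries alone, a replicate block, GC and length offsets, all rows of the locus in the sum, and leaving out each library. Genes named besides members were the listed genes with the largest called changes above 1 CPM in a group, the 3 nearest tested protein-coding genes on each side, and the 5 most like the sum; ESR2, AHR, NFE2L2 and HNF4A were also named in contrasts outside this rule, after their values were seen. Some genes that the rule names are not reported here. Floors of 3 counts cover counting error only.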

Additional observations from a re-analysis of the deposited data

How the results depend on the processing

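The summed locus kept its direction in all alternatives run and its side of the threshold in all but 1: with GC and length offsets, vehicle against add-back gave 0.06224. Those offsets had a value for 97.9% of tested genes, and with them UGT1A1 was called lower in vehicle than in add-back cells (-0.17). The number of members called in add-back against knockout cells was 2, 3 without a filter, and 1 with RLE factors, DESeq2 or the replicate block. With LY500307 against vehicle it was 0, and 1 (UGT1A3) without a filter, with a filter of 1 CPM, with DESeq2 or with the 6 libraries alone. Leaving out 1 library at a time gave 1 to 2 members called in add-back against knockout, 0 to 1 in LY500307 against vehicle and 3 to 5 in vehicle against add-back cells. The cause of these shifts was not tested.

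Signs turned only for members that were not called. UGT1A1 in add-back against knockout cells was 0.009998 without a filter and 0.003005 with DESeq2, and UGT1A7 in LY500307 against vehicle was -0.002642 with upper-quartile factors, -0.0005946 with DESeq2 and -0.002126 with the replicate block. With 1 library left out, UGT1A1 ranged from -0.05905 to 0.02898 in add-back against knockout and from -0.01061 to 0.07203 in LY500307 against vehicle, where UGT1A4 ranged from -0.08231 to 0.2165, UGT1A7 from -0.07251 to 0.08463 and UGT1A10 from -0.7581 to 0.1526. UGT1A10 ranged from -0.2878 to 1.308 in knockout against control, -0.6617 to 0.6614 in add-back against knockout and -0.181 to 1.2 in add-back against control.

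Replicate numbers were shared by the groups, but libraries with the same number did not deviate together (correlations of -0.0952 to 0.0603). The sum with the replicate block was -0.70, 0.13, -0.58, -0.05 and 0.18 in knockout against control, add-back against knockout, add-back against control, LY500307 against vehicle and vehicle against add-back, with the same calls. Transcript tests were less precise than gene tests (biological coefficient of variation 63.1% and 4.99%), and 45 of 171 alternatives of called transcripts lost the call. Counting all transcripts of UGT1A7 moved its first-exon share in each contrast. At these depths a member under 0.228 CPM was not detectable.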
